A study of Mus musculus with 9 samples.

Results

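Ccl25 and Cxcl12 are among the chemokine genes of thymic epithelium whose products draw and hold T cell progenitors. They were taken by symbol from a table of read counts per gene, and are 2 of its 38720 genes. Polyadenylated RNA was sequenced as 20 libraries in 6 groups from sorted mouse thymic epithelial cells, with 20719630 to 22372633 counts per library. Cortical cells (cTEC) were sorted as CD45-, EpCAM+, MHC class II+, Ly51+ and UEA1-, and medullary cells (mTEC) as Ly51- and UEA1+ among the same epithelial cells. The libraries of a group are not tied to named animals in the labels, so p-values measure the spread between these libraries, which may be technical. Foxn1-deleted cTEC (5 libraries) came from mice homozygous for the beta5t-rtTA locus, homozygous for floxed Foxn1 (Foxn1 fl/fl) and carrying 1 copy of the tetO-Cre transgene. Control cTEC (5 libraries) came from mice with the same beta5t-rtTA and floxed loci and no tetO-Cre. Both groups were taken 72 h after doxycycline, which switches Cre on through rtTA in cells that use the beta5t locus, and exons 7 and 8 of Foxn1 are the deleted ones. Heterozygous transgenic mice (wt*/-::nu/nu; 3 cTEC and 2 mTEC libraries) and homozygous transgenic mice (wt*/wt*::nu/nu; 3 cTEC and 2 mTEC libraries) carry a Foxn1 BAC transgene (wt*) on the nude background, in which the gene's own copies do not work. All transgenic groups therefore depend on the transgene for FOXN1, and none of the 4 is a wild type. The sources used here give no ages.

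CCL25 is a chemokine of the CC class made by cortical thymic epithelium and by the small intestine. It acts through the receptor CCR9 on thymocytes and their progenitors. CXCL12 is a chemokine of the CXC class made by many stromal cells, including cTEC, fibroblasts and endothelium. Its receptor CXCR4 holds early thymocytes in the cortex and works with the pre-T cell receptor at beta-selection. FOXN1, a forkhead transcription factor, is required for thymic epithelial cells to attract progenitors and to differentiate. The comparisons ask how far the 2 chemokine transcripts follow the loss of Foxn1 or a smaller transgene dose, and whether they do so alike.

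The upstream sequences of the annotated starts are shown because both genes were lower in heterozygous than in homozygous transgenic cells. FOXN1 is known to recognise a short core, ACGC, within GACGC, and both were searched on both strands. Each ACGC is counted on its own, also where it lies inside a GACGC. Sequences and positions are from RefSeq on GRCm38.p6, plus strand, and capitals mark GACGC or its reverse complement. Ccl25 (chr8:4325205-4360020, protein-coding) has 2 annotated starts in that table. For the first, the 64 bases that separate the neighbouring gene Elavl1 from Ccl25 are given. The second lies inside the Ccl25 gene span, and Cxcl12 (chr6:117168535-117181368, protein-coding) has 1 start. For each of these, the 250 bases before the start are given.
Ccl25 first start, chr8:4325141-4325204: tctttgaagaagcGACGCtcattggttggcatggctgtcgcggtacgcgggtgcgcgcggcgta
Ccl25 second start, chr8:4349338-4349587: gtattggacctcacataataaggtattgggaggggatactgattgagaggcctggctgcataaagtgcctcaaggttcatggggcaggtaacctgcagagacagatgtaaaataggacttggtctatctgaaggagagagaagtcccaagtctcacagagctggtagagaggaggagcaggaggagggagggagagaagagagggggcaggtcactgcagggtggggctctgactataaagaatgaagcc
Cxcl12 start, chr6:117168285-117168534: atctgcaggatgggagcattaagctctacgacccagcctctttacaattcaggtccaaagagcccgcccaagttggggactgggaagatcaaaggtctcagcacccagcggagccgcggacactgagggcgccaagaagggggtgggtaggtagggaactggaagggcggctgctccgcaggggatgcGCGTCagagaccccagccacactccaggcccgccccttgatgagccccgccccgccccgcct

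The 250 bases before the first Ccl25 start, most of which lie in Elavl1, held 1 GACGC and 4 ACGC, and those before the Cxcl12 start held 1 GACGC and 1 ACGC. The second Ccl25 start had 0 of either in its window. Of 32841 such windows over all annotated starts, 22.6% held at least 1 GACGC and 49.9% at least 1 ACGC, so each sequence is common. The core holds a CpG, and the windows differed in base composition. GC content was 74.8% at the first Ccl25 start, 51.6% at the second and 64.4% at Cxcl12, against a median of 52.4% over all windows. The counts are per gene and do not show which start was used. A lncRNA, LOC108167518, is annotated inside the Ccl25 span. Whether the counting used strand is not given, so reads of Ccl25 and of the lncRNA or Elavl1 may not be told apart where they overlap.

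Enpep, which encodes the sort marker Ly51, averaged 21.6 CPM (a gene's counts scaled to a fixed library total) in heterozygous mTEC against 89.6 CPM in heterozygous cTEC, and 32.3 CPM in homozygous mTEC against 131 CPM in homozygous cTEC. It averaged 131 CPM in both Foxn1-deleted and control cTEC. Aire, the medullary regulator, averaged 1009 CPM in heterozygous mTEC against 1.42 CPM in heterozygous cTEC, and 1109 CPM in homozygous mTEC against 2.25 CPM in homozygous cTEC. Macrophage and dendritic markers were present in homozygous mTEC despite the CD45- gate, at a sum of 570 to 677 CPM. Psmb11, the beta5t subunit, was nearly absent from both groups with the beta5t-rtTA locus, at 0.319 CPM in Foxn1-deleted and 0.920 CPM in control cTEC, against 997 CPM in homozygous transgenic cTEC. Foxn1 counts cover the whole gene and do not measure the deletion or the transgene. They averaged 434 CPM in Foxn1-deleted and 454 CPM in control cTEC, 1166 CPM in heterozygous and 1364 CPM in homozygous cTEC, and 495 CPM in heterozygous and 318 CPM in homozygous mTEC.

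Ccl25 spanned more than 2 orders of magnitude over the 6 groups, and its order of levels differed from that of Cxcl12. Ccl25 averaged 1387 ± 852 CPM in control cTEC (SD, n = 5), 1044 ± 168 in homozygous cTEC (n = 3), 96.3 ± 19.6 in homozygous mTEC (n = 2), 84.2 ± 37.1 in Foxn1-deleted cTEC (n = 5), 6.04 ± 0.347 in heterozygous cTEC (n = 3) and 5.30 ± 0.242 in heterozygous mTEC (n = 2). Among neighbours in that order, control and homozygous cTEC overlapped, and so did homozygous mTEC and Foxn1-deleted cTEC. Cxcl12 averaged 2469.8 ± 71.7 CPM in homozygous cTEC, 1595 ± 538 in control cTEC, 863 ± 62.7 in Foxn1-deleted cTEC, 787 ± 83.4 in heterozygous cTEC, 65.8 ± 19.8 in homozygous mTEC and 47.1 ± 3.77 in heterozygous mTEC, over the same numbers of libraries. Only the neighbours Foxn1-deleted and heterozygous cTEC overlapped for Cxcl12. Every cTEC library, whatever its genotype, had more Cxcl12 than every mTEC library. For Ccl25 this did not hold, since homozygous mTEC were above heterozygous cTEC. Within a genotype, all mTEC libraries lay below all cTEC libraries for 32.9% of genes tested in homozygous and 32.1% in heterozygous mice. The share of genes that did so over all 20 libraries was not computed. Levels across the deletion and transgenic sets differ in genotype, doxycycline and set together, which cannot be told apart.

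**Figure D1:**
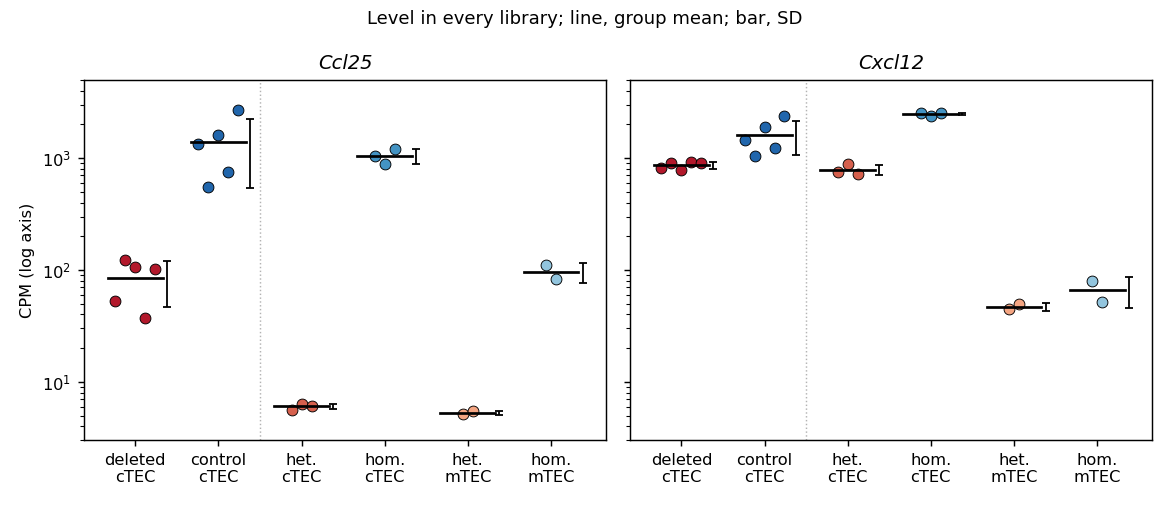
CPM of Ccl25 (left) and Cxcl12 (right) on a log axis in each of the 20 libraries, with the group mean as a line and the SD as a bar; the dotted line parts the deletion set from the transgenic set. Heterozygous cTEC and mTEC sit at 5.13 to 6.35 CPM of Ccl25, while every cTEC library has more Cxcl12 than every mTEC library. Within a genotype, such a gap was found for 32.9% of genes in homozygous and 32.1% in heterozygous mice.

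At 72 h after doxycycline, the mean of Ccl25 in Foxn1-deleted cTEC was 6.07% of the control mean, and that of Cxcl12 was 54.1%. Ccl25 was at 52.7, 123, 106, 37.2 and 102 CPM in the Foxn1-deleted libraries 1 to 5, against 1337, 546, 1603, 746 and 2706 CPM in the control libraries 1 to 5. The groups did not overlap, and the highest deleted library (123 CPM) lay well below the lowest control library (546 CPM). The fall was 17.0-fold (log2 fold change -4.09 ± 0.52 SE, adjusted p = 0.00934, edgeR quasi-likelihood test), the 8th lowest of 15224 fold changes. Ccl25 was called lower, as were 1.69% of genes tested. Cxcl12 was at 819.8, 899, 774, 918 and 903 CPM in the Foxn1-deleted libraries, against 1436, 1043, 1883, 1235 and 2379 CPM in the control libraries. These groups did not overlap either, a pattern found in the lower direction for 4.16% of genes tested. Cxcl12 did not pass the threshold of 0.05 (-0.92 ± 0.21, 95% interval -1.39 to -0.45, adjusted p = 0.0574). It passed at adjusted p = 0.0114 without control library 2 and 0.0361 without control library 4. It also passed in 6 of the 8 settings that changed the scaling, the filter, the tool, the block or the set of libraries. Among the 6 was a block by library number (-0.85, adjusted p = 0.0416). In bulk libraries, fewer cells that make a transcript and less transcript per cell cannot be told apart.

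The control libraries ranged 4.95-fold in Ccl25 and 2.28-fold in Cxcl12, and they fell in the same order for both genes. That order was library 2 lowest, then 4, 1, 3 and 5. The summed CPM of 8 cTEC markers, 9176 to 28280 in control libraries, had the same order. Thymocyte marker sums had nearly that order, at 95.2 CPM in library 2, then 254 in 4, 541 in 3, 573 in 1 and 691 in 5. Endothelial sums were lowest in library 2 (6.88 CPM), then 4 (17.6 CPM), and highest in 3 (39.8 CPM). Fibroblast sums were lowest in library 5 (458 CPM) and highest in 1 (1014 CPM). The part of these lists in the order was not tested. In the Foxn1-deleted libraries the 2 genes did not share an order, since library 4 had the least Ccl25 and the most Cxcl12. There Ccl25 ranged 3.31-fold, Cxcl12 1.19-fold, and the cTEC marker sum lay between 5449 and 6214 CPM. Of the cTEC markers, edgeR called 4 of 8 lower after deletion, with 7 at an unadjusted p under 0.05, and limma-voom called 2 and DESeq2 6. For this list and those below, the share of all genes called by edgeR was 1.69% lower and 0.282% higher. Fibroblast marker sums were 1002 to 1667 CPM in Foxn1-deleted and 458 to 1014 CPM in control cTEC (0 of 12 called), and the groups overlapped. Endothelial markers summed to 6.16 to 42.8 CPM in deleted and 6.88 to 39.8 CPM in control libraries (0 of 10 called), and thymocyte markers to 90.4 to 534 CPM in deleted and 95.2 to 691 CPM in control libraries (0 of 17 called). None of these 3 lists had a marker at 0 in every library of a group, and their part in the chemokine results was not tested. Of the other lists, 0 of 11 mTEC, 9 macrophage and dendritic, 2 B cell and 4 erythroid markers tested were called by edgeR. At an unadjusted p under 0.05 there were 2 mTEC, 1 thymocyte and 1 fibroblast marker and 0 of the endothelial, macrophage and dendritic, B cell and erythroid lists. DESeq2 called 2, 1 and 1 of the mTEC, thymocyte and fibroblast lists and 0 of the others, and limma-voom 0 of each.

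**Figure D2:**
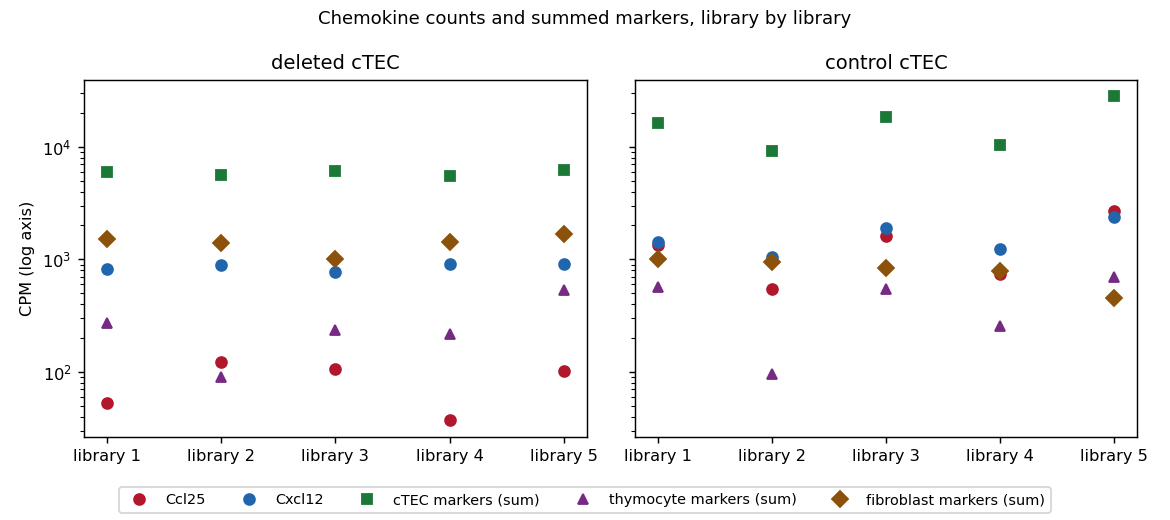
CPM of Ccl25, Cxcl12 and 3 summed marker lists on a log axis in Foxn1-deleted (left) and control (right) libraries 1 to 5. In control libraries Ccl25, Cxcl12 and the cTEC and thymocyte marker sums are lowest in library 2 and highest in library 5, and the fibroblast sum is lowest in library 5. Cxcl12 in deleted libraries stays between 774 and 918 CPM.

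With the smaller transgene dose, cTEC had 0.579% of the Ccl25 and 31.9% of the Cxcl12 of homozygous cTEC. Ccl25 was at 5.665, 6.35 and 6.10 CPM (124 to 137 counts) in heterozygous libraries 1 to 3, against 1039.6, 878 and 1214 CPM (19373 to 25517 counts) in homozygous libraries 1 to 3. Each group was tight next to the gap between them. Ccl25 was 189-fold lower (-7.57 ± 0.16, adjusted p = 2.47e-12), the 3rd lowest of 19222 fold changes. Cxcl12 was at 755, 882 and 725 CPM in heterozygous cTEC, against 2497, 2388 and 2524 CPM in homozygous cTEC. Cxcl12 also separated the groups (3.44-fold lower, -1.78 ± 0.12, adjusted p = 8.81e-08). Both members were called lower, beside 21.9% of all genes tested. Of all calls 51.1% were lower, and 32.5% without normalization factors, which shifted the median of all genes by 0.11 log2. The non-overlap of the groups was also common, at 18.3% of genes in the lower direction. Foxn1 itself was 1.28-fold lower (-0.36 ± 0.06, adjusted p = 4.45e-04). Thymocyte markers summed to 24.6 to 35.1 CPM in heterozygous and 90.4 to 136 CPM in homozygous cTEC, with 18 of 18 called lower (Bcl11b not without normalization factors). Fibroblast markers summed to 359 to 389 CPM in heterozygous and 109 to 125 CPM in homozygous cTEC (5 of 12 called higher). Endothelial markers summed to 3.26 to 5.39 CPM in heterozygous and 5.61 to 8.32 CPM in homozygous cTEC (2 of 10 called lower). The cTEC markers summed to 4844 to 5468 CPM in heterozygous and 22655 to 24470 CPM in homozygous cTEC, with 8 of 8 called lower. The mTEC markers summed to 707 to 832 CPM in heterozygous and 171 to 194 CPM in homozygous cTEC (4 called higher and 5 lower of 11). The part of these lists in the result was not tested.

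In mTEC the dose difference was large for Ccl25 and small for Cxcl12. Ccl25 was at 5.13 and 5.47 CPM in heterozygous mTEC, against 110.1 and 82.5 CPM in homozygous mTEC (17.9-fold lower, -4.16 ± 0.18, adjusted p = 5.51e-09). Cxcl12 was at 44.4 and 49.7 CPM in heterozygous mTEC, against 79.8 and 51.8 CPM in homozygous mTEC (1.38-fold lower, -0.46 ± 0.16, adjusted p = 0.0227). Both were called lower, as were 30.8% of genes tested, and 41.5% of genes had groups apart in that direction. Of all calls 51.6% were lower, and 64.4% with RLE size factors, which moved the median of all genes to -0.12 log2. The Cxcl12 groups came close at their nearest libraries (49.7 and 51.8 CPM), and the call rested on single libraries. The log2 fold change was -0.38 (adjusted p = 0.127) without heterozygous library 1 and -0.11 (adjusted p = 0.484) without homozygous library 1. Homozygous library 1 was the higher of its pair in both chemokines, and also in the cTEC markers, with a sum of 4097 against 3405 CPM in library 2. The cTEC marker sum was 2675 to 2681 CPM in heterozygous mTEC, and 8 of 8 cTEC markers were called lower there. Fibroblast markers summed to 263 to 291 CPM in heterozygous and 328 to 372 CPM in homozygous mTEC (2 called higher and 4 lower of 12), and endothelial markers to 72.6 to 109 CPM in heterozygous and 108 to 116 CPM in homozygous mTEC (2 higher and 3 lower of 10). Macrophage and dendritic markers summed to 112 to 115 CPM in heterozygous and 570 to 677 CPM in homozygous mTEC (10 of 12 called lower). Thymocyte markers summed to 85.0 to 85.2 CPM in heterozygous and 127 to 149 CPM in homozygous mTEC (15 called lower and 1 higher of 18). The part of these lists in the result was not tested. Foxn1 counts went against Ccl25 here, at 1.58-fold higher in heterozygous mTEC (0.66 ± 0.08, adjusted p = 1.68e-05).

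The dose difference itself differed between the subsets for both genes. For Ccl25 the log2 dose difference was 3.41 ± 0.25 less negative in mTEC than in cTEC (adjusted p = 4.23e-07, interaction in the same fit), and for Cxcl12 it was 1.32 ± 0.20 less negative (adjusted p = 1.54e-04). An interaction was called in 42.5% of genes tested, and in 25.2% in this direction.

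Between the subsets, the 2 chemokines parted with dose. In homozygous mice Ccl25 was 12.8-fold lower in mTEC than in cTEC (-3.68 ± 0.14, adjusted p = 3.80e-11) and Cxcl12 was 44.4-fold lower (-5.47 ± 0.17, adjusted p = 4.88e-12), the 9th lowest of 19222 fold changes. In this comparison 39.4% of genes were called lower and 43.2% higher, and 32.9% did not overlap in that direction. Lower genes made up 47.7% of the calls, and 37.4% without normalization factors, with a median over all genes of 0.28 log2 in that scaling. In heterozygous mice Cxcl12 was 17.7-fold lower in mTEC (-4.15 ± 0.16, adjusted p = 7.48e-11), in a comparison with 31.6% of genes called lower and 40.4% higher. Ccl25 was not called there, with 5.13 to 5.47 CPM in mTEC and 5.665 to 6.35 CPM in cTEC. Its log2 fold change was -0.27 ± 0.20 (95% interval -0.71 to 0.16, adjusted p = 0.241). The CPM of these groups did not overlap, a pattern found for 32.1% of genes in the lower direction. Foxn1 was 5.08-fold lower in homozygous mTEC and 2.50-fold lower in heterozygous mTEC than in cTEC of the same genotype. Endothelial marker sums were 108 to 116 CPM in homozygous mTEC against 5.61 to 8.32 CPM in homozygous cTEC (8 of 10 called higher), and fibroblast sums 328 to 372 CPM in mTEC against 109 to 125 CPM in cTEC (9 of 12 called higher). In heterozygous mice endothelial sums were 72.6 to 109 CPM in mTEC and 3.26 to 5.39 CPM in cTEC (10 of 10 called higher), and fibroblast sums 263 to 291 CPM in mTEC and 359 to 389 CPM in cTEC (7 called higher and 4 lower of 12). The part of these lists in the Cxcl12 levels was not tested.

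The deletion and the smaller transgene dose gave different sizes of change of Ccl25 in cTEC. The deletion difference of Ccl25 was 3.48 ± 0.63 log2 less negative than its dose difference (adjusted p = 0.00271, 1 fit over all 20 libraries, 6.67% of genes called and 3.14% in this direction). For Cxcl12 the gap was 0.87 ± 0.29 log2 and did not pass (95% interval 0.25 to 1.49, adjusted p = 0.0908). It passed without control library 5 (1.07 ± 0.23, adjusted p = 0.00647). Homozygous transgenic cTEC and control cTEC did not differ by the test in Ccl25 (-0.45 ± 0.42, 95% interval -1.33 to 0.44, adjusted p = 0.451). Cxcl12 was 1.52-fold higher in homozygous transgenic cTEC than in control cTEC (0.60 ± 0.20, adjusted p = 0.0352), where 10.7% of genes were called higher and 17.5% lower. The libraries of these 2 groups did not overlap in Cxcl12, as for 11.9% of genes in that direction. They came close, at 2388 CPM in the lowest homozygous and 2379 CPM in the highest control library. The call of Cxcl12 was lost without homozygous library 1, 2 or 3 or control library 1, 2 or 4, at adjusted p = 0.0546 to 0.0947. Foxn1 counts were 2.97-fold higher in homozygous transgenic cTEC (1.57 ± 0.14, adjusted p = 7.66e-07). The cTEC markers summed to 22655 to 24470 CPM in homozygous transgenic and 9176 to 28280 CPM in control cTEC (2 of 8 called higher). Fibroblast markers summed to 109 to 125 CPM in homozygous transgenic and 458 to 1014 CPM in control cTEC (11 of 12 called lower). Thymocyte markers summed to 90.4 to 136 CPM in homozygous transgenic and 95.2 to 691 CPM in control cTEC (15 of 18 called lower). Of the mTEC and endothelial lists, 6 of 11 markers each were called lower. Their part in the result was not tested.

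**Figure D3:**
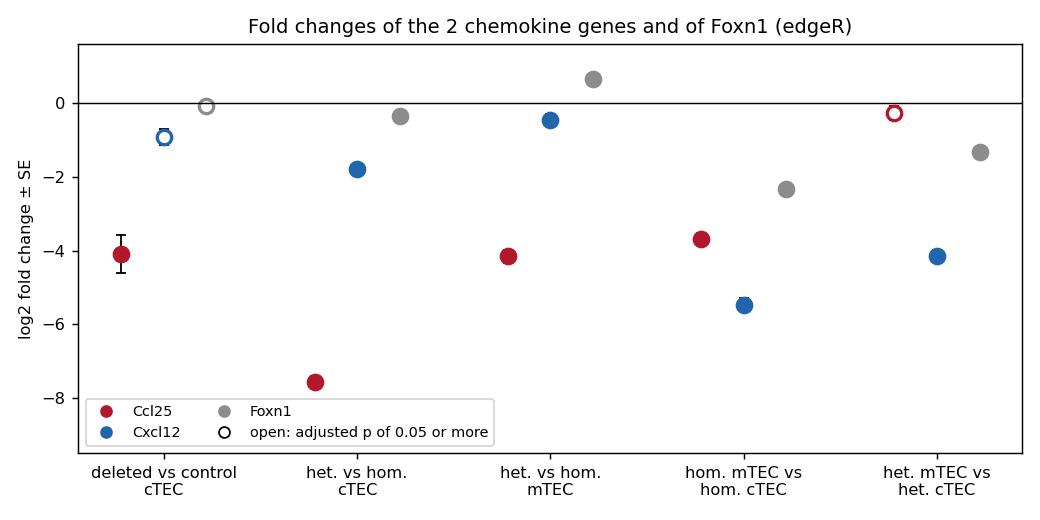
Log2 fold changes with their SE for Ccl25, Cxcl12 and Foxn1 in 5 comparisons, each named with the group on top of the fold change first; open points did not pass an adjusted p of 0.05. Ccl25 lies below Cxcl12 in the deletion and both dose comparisons, and above it in both comparisons of mTEC with cTEC.

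The ratio of the 2 counts within a library needs no scaling for depth or composition. It depends on the lengths of the transcripts, so only its changes are read. There were 6.43, 13.7, 13.7, 4.06 and 11.3 Ccl25 counts per 100 Cxcl12 counts in Foxn1-deleted libraries 1 to 5, against 93.0, 52.4, 85.1, 60.4 and 114 in control libraries 1 to 5. The log2 ratio was 3.13 lower after deletion (exact permutation test, two-sided, p = 0.00794, the smallest that 5 against 5 libraries allow; 0.0397 after Benjamini-Hochberg adjustment over 5 comparisons). In heterozygous cTEC the ratio was 0.750, 0.720 and 0.842 per 100, against 41.6, 36.8 and 48.1 in homozygous cTEC, a log2 difference of -5.76. In heterozygous mTEC it was 11.6 and 11.0 per 100, against 138 and 159 in homozygous mTEC, a log2 difference of -3.71. Ccl25 was therefore lower relative to Cxcl12 in every deleted or heterozygous library than in any library of its counterpart. Set by subset, the ratio was higher in mTEC, by 1.82 log2 in homozygous and 3.87 log2 in heterozygous mice. None of these 4 differences could pass the exact test, whose smallest p is 0.1 for 3 against 3 libraries, 0.2 for 2 against 3 and 0.333 for 2 against 2, and each reached that p with groups that did not overlap.

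**Figure D4:**
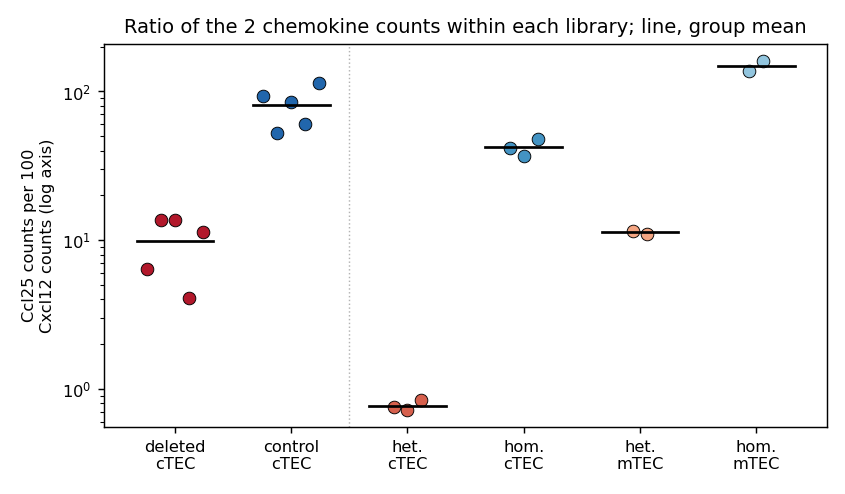
Ccl25 counts per 100 Cxcl12 counts on a log axis in each library, with the group mean as a line. The ratio is lowest in heterozygous cTEC, at 0.720 to 0.842, and highest in homozygous mTEC, at 138 and 159.

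Receptors and scavengers of the 2 chemokines were counted in the same sorted libraries. Ccr9, the CCL25 receptor, and Cxcr4, the CXCL12 receptor, are known as thymocyte genes, and were at low levels. Ackr4, an atypical receptor that removes CCL25, CCL19 and CCL21, averaged 467 CPM in Foxn1-deleted cTEC, 528 in control cTEC, 705 in heterozygous cTEC, 507 in homozygous cTEC, 41.3 in heterozygous mTEC and 42.2 in homozygous mTEC. After deletion edgeR called 0 of 5 genes of this list (median log2 fold change -0.15, against 0.01 over all genes). Calls were rare in this comparison, at 1.69% of all genes lower and 0.282% higher, so 0 of 5 is near the share over all genes. Of the 5, 2 were at an unadjusted p under 0.05, 0 were called by limma-voom and 1, Ackr2, by DESeq2. The values were -0.15 for Ccr9, -0.71 for Cxcr4, -0.20 for Ackr4, 0.88 for Ackr3 and 1.64 for Ackr2. With the smaller dose, 3 of these 5 rose in cTEC and 2 fell, with a median of 0.34, where 20.9% of all genes were called higher and 21.9% lower. Ackr4 rose in the cells whose Ccl25 fell (0.34 ± 0.07, adjusted p = 0.00123), at 651, 703 and 759.8 CPM in heterozygous and 489, 527 and 504 CPM in homozygous cTEC. Ackr3, a scavenger of CXCL12, rose (2.10 ± 0.32, adjusted p = 1.31e-04) at 7 to 76 counts per library over these groups, and Ackr2, which removes inflammatory CC chemokines, rose (0.214 CPM in heterozygous against 0.0156 CPM in homozygous cTEC, adjusted p = 0.0298) at 0 to 8 counts. Ccr9 fell (-2.73 ± 0.27, adjusted p = 2.89e-06) at 8 to 100 counts per library, and so did Cxcr4 (-1.10 ± 0.24, adjusted p = 0.00206) at 20 to 55 counts, beside the fall of all 18 thymocyte markers, whose part in these values was not tested. In heterozygous mTEC Ccr9 (-1.04) and Ackr2 (-0.78) fell, while Cxcr4 (0.30), Ackr3 (0.39) and Ackr4 (-0.01) did not pass, in a comparison with 30.8% of all genes called lower. Of the thymocyte markers 15 of 18 were called lower there (85.0 to 85.2 CPM in heterozygous against 127 to 149 CPM in homozygous mTEC), and their part in the fall of Ccr9 was not tested. Ackr4 was the list member lower in mTEC, in homozygous (-3.83 ± 0.09) and in heterozygous mice (-4.18 ± 0.09). Cxcr4, Ackr3 and Ackr2 were higher in mTEC of both genotypes, and Ccr9 was called higher in heterozygous mice (1.99 ± 0.31). Such calls were common in mTEC against cTEC, at 43.2% of all genes higher and 39.4% lower in homozygous mice. The shares in heterozygous mice were 40.4% higher and 31.6% lower. In homozygous mice Ccr9 was not called (0.30 ± 0.22), though without normalization factors it was, as 1 of 4 higher. The interaction of Ccr9 was 1.69 ± 0.38 (adjusted p = 0.00318), where 42.5% of all genes had an interaction called and 25.2% in this direction.

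**Figure D5:**
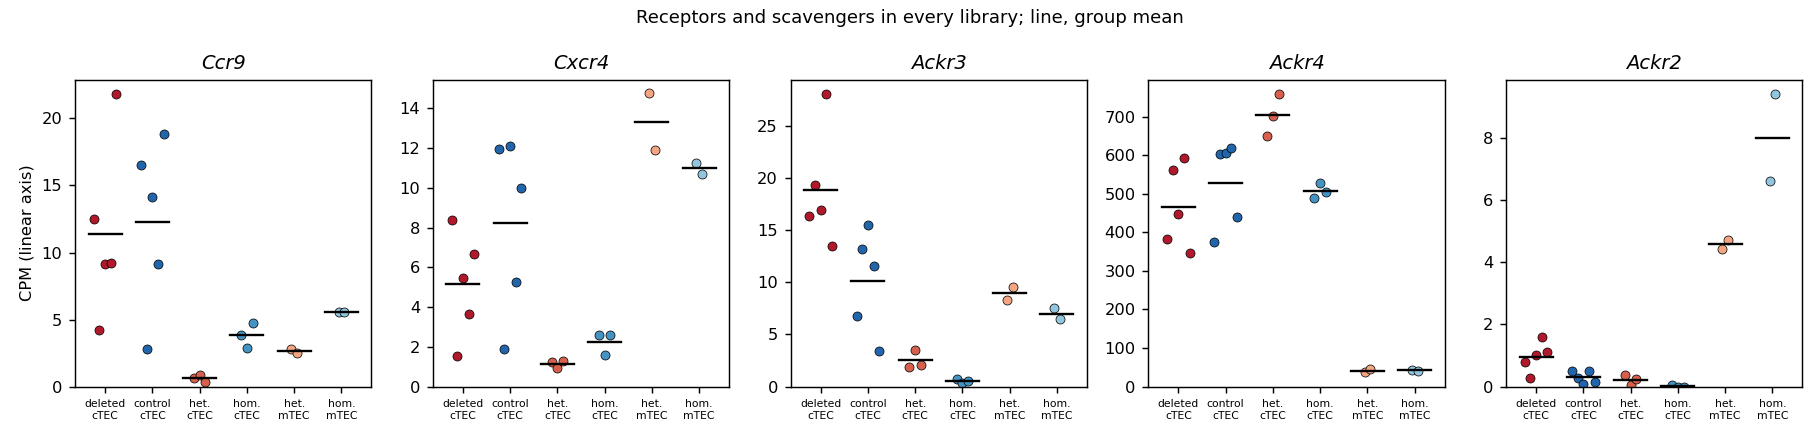
CPM on linear axes of the receptors Ccr9 and Cxcr4 and the scavengers Ackr3, Ackr4 and Ackr2 in each library, with group means as lines. Ackr4 is at 347 to 759.8 CPM in every cTEC library and at 41.3 and 42.2 CPM on average in heterozygous and homozygous mTEC.

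Other signals for progenitors from the cortex moved with Ccl25 in part. Of 9 such genes, 2 fell and none rose after deletion (median -0.15, against 0.01 over all genes), where 1.69% of all genes were called lower and 0.282% higher. The tools differed on this list, with 1 call by limma-voom and 3 by DESeq2, and 3 genes at an unadjusted p under 0.05 in edgeR. The 2 called by edgeR were Dll4, the Notch ligand (33.2 CPM in Foxn1-deleted against 230.1 CPM in control cTEC, -2.83 ± 0.35), and Flt3l, a growth factor for progenitors (9.82 against 23.0 CPM, -1.26 ± 0.27). Wnt4 (-0.57) did not pass in edgeR but did in DESeq2, and Tgfb1 (-0.15) passed in neither. In cTEC with the smaller dose, 7 of 9 were lower and 2 higher (median -0.36, against 0.00 over all genes). Of all genes tested, 21.9% were called lower there and 20.9% higher. Dll4 (-2.31 ± 0.08), Kitl, which encodes stem cell factor (-1.31 ± 0.08), and Wnt4 (-0.68 ± 0.06) fell, and Bmp4 rose to 27.8 CPM against 2.49 CPM (3.34 ± 0.21). Without normalization factors 3 of the 7 lost the call, namely Il7, Vegfa and Tgfb1. In heterozygous mTEC 5 fell and 2 rose (median -0.33, against 0.01 over all genes, of which 30.8% were called lower and 28.9% higher). Igf1 (-2.65 ± 0.12) and Kitl (-0.96 ± 0.12) were down, and Bmp4 (2.70 ± 0.32) and Wnt4 (0.45 ± 0.07) up. Igf1, also a gene of macrophages, averaged 12.6 CPM in heterozygous against 80.6 CPM in homozygous mTEC, and macrophage and dendritic markers summed to 112 to 115 CPM in heterozygous and 570 to 677 CPM in homozygous mTEC (10 of 12 called lower). Their part in the fall of Igf1 was not tested. In homozygous mTEC against cTEC, Dll4 (-4.40 ± 0.11), Kitl (-4.01 ± 0.11) and Wnt4 (-2.54 ± 0.07) were among 8 of 9 that were lower, and Igf1 was higher beside 11 of 12 macrophage and dendritic markers (7.13 ± 0.15; median of the list -1.44, against 0.04 over all genes). Of all genes tested, 39.4% were called lower and 43.2% higher in homozygous mTEC against cTEC. The same counts of the list, 8 lower and 1 higher, held in heterozygous mice, where 31.6% of all genes were called lower and 40.4% higher.

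The medullary and vascular homing genes had no edgeR call after deletion. Their calls at the smaller dose were mostly lower, and those in mTEC against cTEC mostly higher. Of 13 tested after deletion, edgeR called 0 (median -0.07), with 0 at an unadjusted p under 0.05 and 0 called by limma-voom or DESeq2. Over all genes tested, edgeR called 1.69% lower and 0.282% higher. The smallest p belonged to Cd44, the hyaluronan receptor (-0.30, adjusted p = 0.321). By dose in cTEC, 9 of 14 were lower and 1 higher (median -0.53), where 21.9% of all genes were called lower and 20.9% higher. Without normalization factors Ccl19 and Icam1 were no longer among the 9. The smallest p belonged to S1pr1 (-4.17 ± 0.17), the integrin ligand Vcam1 at 215 against 570 CPM (-1.54 ± 0.09), Itgal (-2.88 ± 0.21) and Selplg (-2.23 ± 0.29), all lower. S1pr1, Itgal and Selplg are also genes of lymphocytes, whose markers fell in the same libraries. Ccl21a, a CCR7 ligand named here after its values were seen, was the gene that rose (1.03 ± 0.24). Its reads may be shared with near-identical Ccl21 copies, so its value is uncertain. In heterozygous mTEC 12 of 14 fell and 0 rose (median -0.93), as in Ccr7 (-3.71 ± 0.16), Itgal (-2.13 ± 0.15), S1pr1 (-1.52 ± 0.14) and Ccl19, a CCR7 ligand (-0.97 ± 0.09), where 30.8% of all genes were called lower. Ccr7, Itgal and S1pr1 are also genes of blood cells. Markers of macrophages and dendritic cells (10 of 12), thymocytes (15 of 18) and B cells (5 of 7) were called lower in the same comparison, and their part in the counts was not tested. Ccl19 (5.05 ± 0.11), Ccr7 (6.35 ± 0.18), Madcam1 (8.17 ± 0.30) and Itgal (2.72 ± 0.14) were among the 11 of 14 that were higher in homozygous mTEC than in cTEC, with 3 lower (median 2.22), where 43.2% of all genes were called higher. Markers of macrophages and dendritic cells (11 of 12), B cells (7 of 7) and red cells (5 of 5) were called higher there too, and their part in the counts was not tested. Of those 3, Vcam1 and Itgb1, named after their values were seen, lost the call under both other scalings, and Itgb1 turned its sign without normalization factors (0.0067). In heterozygous mice 12 of 14 were higher in mTEC and 2 lower, where 40.4% of all genes were called higher and 31.6% lower.

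Genes for cleaving chemokines and for the heparan sulfate that holds them on cell surfaces showed 0 calls by edgeR among 27 after deletion (median 0.14). With so few genes called in this comparison, at 1.69% of all genes lower and 0.282% higher (median 0.01), 0 of 27 is near the share over all genes. Of the 27, 7 were at an unadjusted p under 0.05, 0 were called by limma-voom and 2, Sdc3 and Mmp9, by DESeq2. The smallest p from edgeR belonged to the syndecan Sdc3 (0.73 ± 0.17, adjusted p = 0.0622) and to Mmp9, a matrix metalloprotease (332 CPM in Foxn1-deleted against 647 CPM in control cTEC, adjusted p = 0.0753). By dose in cTEC, 14 of 28 were higher and 6 lower (median 0.19), where 20.9% of all genes were called higher and 21.9% lower. Ndst2, Hs2st1 and Sdc3 of the 6 lost the call without normalization factors. Dpp4, the peptidase that clips the end of CXCL12, rose to 6.22 CPM in heterozygous cTEC, against 1.16 CPM in homozygous cTEC (2.28 ± 0.19). Sdc1 rose (0.56 ± 0.06), and Mmp9 (266 CPM in heterozygous against 524 CPM in homozygous cTEC) and the glypican Gpc1 (-0.66 ± 0.06) fell. In heterozygous mTEC 12 of 28 were higher and 9 lower (median 0.13), where 28.9% of all genes were called higher and 30.8% lower. Under RLE size factors the split turned to 8 higher and 10 lower (median 9.4e-04), and Mmp14, Ext1, Hs2st1 and Gpc3 were no longer called higher. Mmp2 (0.93 ± 0.09) and the epimerase Glce (0.84 ± 0.08) rose. In mTEC against cTEC 21 of 28 were lower and 6 higher in homozygous mice (median -0.77), and 19 lower and 5 higher in heterozygous mice (median -0.83). Of all genes tested, 39.4% were called lower and 43.2% higher in homozygous mice, and 31.6% lower and 40.4% higher in heterozygous mice. Of the 21, Hs6st2, Gpc1, Mmp14, Sdc2 and Sdc4 lost the call without normalization factors, and Sdc4 then turned its sign (0.017). Mmp2 (-3.37 ± 0.09), Hspg2, which encodes perlecan (-2.61 ± 0.09), and the heparan sulfate enzymes Ext1 (-1.87 ± 0.07) and Hs2st1 (-1.72 ± 0.07) were lower in homozygous mTEC.

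The genes whose levels followed each chemokine over the 20 libraries were not the same. Likeness was measured as Pearson's r of log2 CPM among 12847 genes, as a description, since the libraries share groups and composition. Closest to Ccl25 were Slc22a7, an organic anion transporter (r = 0.991), Isg20, an exonuclease (0.973), the surface protein gene Cd83 (0.960), the annexin Anxa7 (0.957) and Fgf14 (0.948). Slc22a7 averaged 1.87 CPM in Foxn1-deleted against 32.5 CPM in control cTEC, and 0.138 CPM in heterozygous against 25.5 CPM in homozygous cTEC. It was near the floor in heterozygous cells, at 2 to 5 counts per cTEC library and 3 counts in each mTEC library. Closest to Cxcl12 were Abat, the GABA transaminase (r = 0.996), the cadherin Cdh4 (0.987), Tmc3 (0.987), the nucleoredoxin gene Nxn (0.986) and Pltp, a phospholipid transfer protein (0.986). Abat averaged 145 CPM in Foxn1-deleted against 288 CPM in control cTEC, and 133 CPM in heterozygous against 367 CPM in homozygous cTEC. The 2 chemokines had r = 0.635 with each other, which placed Cxcl12 962nd in the order for Ccl25 and Ccl25 3582nd in the order for Cxcl12. Foxn1 counts had r = 0.02 with Ccl25 and 0.507 with Cxcl12. Over the 6 group means in place of the libraries, 2 of the 5 genes remained for Ccl25 and 1 of the 5 for Cxcl12.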

How the data were processed

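The deposited table holds whole-number counts for 38720 gene symbols in 20 library columns, and 29693 symbols had a count. The submitters' processing notes name featureCounts, TopHat2 (2.0.10), Bowtie2 (2.2.3), Trimmomatic (0.32) and SAMtools, besides BWA (0.7.5), MACS2 (2.0.10) and Picard (1.105), with the builds mm10 and GRCm38. Their roles, the gene annotation and whether strand was used in counting were not given in the sources used here. The FLAG chromatin, input and ATAC samples were not analysed here.

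Counts were tested with edgeR 4.0.16 (R 4.3.3) by its two-sided quasi-likelihood test, TMM factors and a filterByExpr filter (at least 10 counts, 15 in total). P-values were adjusted by Benjamini-Hochberg over all genes tested, and the threshold was 0.05. The deletion set (10 libraries), the transgenic set (10 libraries, 4 groups) and, for comparisons across them, all 20 libraries were fitted apart. CPM uses raw totals. SE is the log2 fold change over the root of F. The ratio test added 0.5 to each count. Intervals are at 95%. Scripts were tested on simulated data. Alternatives were DESeq2 1.42.0, limma-voom (3.58.1), other scalings, no filter, a replicate block, other sets of libraries and leaving out each library.

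The members, gene lists and tests were chosen with earlier results of these data known. By the rule for named genes, the members, Foxn1 and all receptors and scavengers are named, up to 4 genes of smallest p from the other 3 lists (homing and entry, cleavage and heparan sulfate, cortical niche factors), and the 5 genes most like each member. These had a mean CPM of at least 2 and were ranked by r of log2 CPM with a prior count of 2. Predicted genes, receptor segments and pseudogenes of ribosomal proteins were left out of that ranking. Of 146 list and marker entries 145 were in the table.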

Additional observations from a re-analysis of the deposited data

Results flagged for a closer look

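Ccl25 was flagged because its dose difference differed between the subsets. The log2 difference was 3.41 less negative in mTEC (5.13 and 5.47 CPM in heterozygous against 110.1 and 82.5 CPM in homozygous mTEC) than in cTEC (5.665 to 6.35 against 878 to 1214 CPM). Heterozygous cells of both subsets thus had nearly the same Ccl25 CPM, and the homozygous cells did not.

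Cxcl12 was flagged for the same contrast, with a dose difference 1.32 log2 less negative in mTEC than in cTEC. Its mTEC dose call was lost without heterozygous library 1 or homozygous library 1, but the interaction stayed past the threshold in all 10 fits that left out a library (adjusted p = 3.45e-05 to 0.00115).

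Ccl25 was also flagged because its difference after deletion was 3.48 log2 less negative than its dose difference in cTEC. The sets differ in genotype, the beta5t-rtTA locus included, and in doxycycline, which cannot be told apart from the time since loss of Foxn1 function. No library stood apart from its group in either gene or in their ratio by Dixon's criterion, which can be applied to the groups of 5.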

How the results depend on the processing

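Every alternative kept the direction of all results for the 2 genes, and Ccl25 kept its call or its missing call in all of them, as did Cxcl12 for dose in cTEC, both subset comparisons and the interaction. Cxcl12 after deletion passed with no normalization factors (-0.89, adjusted p = 0.0463), no filter (-0.92, 0.0440), DESeq2 (-0.92, 0.00153), the fit of all 20 libraries (-0.90, 0.00608) and both libraries numbered 2 left out (-1.06, 0.0297, chosen after seeing the data), and ranged from -1.05 to -0.71 without single libraries (adjusted p = 0.0114 to 0.155). Cxcl12 in mTEC by dose did not pass without the filter (-0.51, adjusted p = 0.0563) and ranged from -0.73 to -0.11 without single libraries. The Cxcl12 gap between deletion and dose passed with DESeq2 (0.87, adjusted p = 0.0451) and ranged from 0.74 to 1.07 without single libraries. Cxcl12 in homozygous transgenic against control cTEC ranged from 0.47 to 0.81. The causes of these changes were not tested. The ratio after deletion ranged from -3.29 to -2.85 log2 without single libraries, each at an adjusted p of 0.0794, the smallest that 4 against 5 libraries allow.

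Genes called after deletion numbered 300 of 15224, 104 with limma-voom, 1064 with DESeq2, 1541 with all 20 libraries and 474 with both libraries numbered 2 left out. They numbered 198, 920, 65 and 494 without control libraries 1 to 4, and 46, 109, 134, 27 and 67 without deleted libraries 1 to 5. For deletion against dose the count was 1309, 1965 with DESeq2, 833 without heterozygous cTEC library 3, 863, 827 and 793 without homozygous cTEC libraries 1 to 3 and 2179 without control library 5. For homozygous transgenic against control cTEC it was 5543, and 3550 and 3611 without homozygous libraries 2 and 3, within a range of 3550 to 6533 over all single libraries left out. Lower genes made up 40.6% of interaction calls, 53.6% with RLE factors and 57.1% with none, and 52.9% of calls for deletion against dose, or 70.0% with none. With TMM factors mean CPM became 4.72 for Ccl25 in heterozygous mTEC, and 2613 in homozygous cTEC and 41.9 in heterozygous mTEC for Cxcl12. Over the 6 group means, 2 and 1 of the 5 genes most like Ccl25 and Cxcl12 remained.

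A replicate block by library number gave -0.85 for Cxcl12 after deletion (adjusted p = 0.0416) and 1220 genes called. It kept the calls of Ccl25 after deletion and of both genes by dose in cTEC, and was run for these 2 comparisons only. The numbers were not taken as pairs, because the labels tie no library to a named animal. The deviations of same-numbered libraries correlated at 0.0874 to 0.754 in the deletion set and 0.0475 to 0.0595 between the cTEC dose groups. In the deletion set 8 of 10 libraries correlated best with their own number, and between the cTEC dose groups 6 of 6. The main tests leave this likeness of same-numbered libraries out.

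Depth did not limit either gene, whose lowest count in a library was 109, but it limits Ccr9, Cxcr4, Ackr3 and Ackr2 in transgenic cTEC, each at 0 to 100 counts per library.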

Other observations

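Elavl1, which encodes an RNA-binding protein, lies next to the first Ccl25 start on the other strand and was looked up after that position was seen. It averaged 87.4 CPM in Foxn1-deleted against 101.3 CPM in control cTEC (-0.24 ± 0.09, adjusted p = 0.202), and 113 CPM in heterozygous against 126 CPM in homozygous cTEC (-0.29 ± 0.05, adjusted p = 2.39e-04). In mTEC it was higher in heterozygous than in homozygous mice, at 117 against 93.0 CPM (0.35 ± 0.06, adjusted p = 2.42e-04). Its log2 fold changes were within 0.35 in the 3 comparisons in which those of Ccl25 were -4.09, -7.57 and -4.16. Whether reads of Elavl1, or of the lncRNA inside the Ccl25 span, enter the Ccl25 counts was not tested.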
